A study of Mus musculus with 10 samples.

Results

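The EGF receptor family in the mouse cochlea was followed through 7 genes: the ligands Hbegf, Areg, Ereg and Btc and the receptors Egfr, Erbb2 and Erbb3. Members were all probe sets whose platform gene symbol is 1 of these 7 names. This gave 9 of the 12488 probe sets of the table, which measured 5 of the 7 genes, out of 8252 genes with a probe set of their own (Hbegf with 1, Ereg with 2, Btc with 1, Egfr with 3 and Erbb3 with 2). Areg and Erbb2 were not analysed here. A probe set is a group of short probes on the array whose combined brightness gives 1 signal in arbitrary units. Signals of different probe sets are not on a common scale, so changes are read between arrays of the same probe set. Signals of different genes, a common filter and control probe sets serve only as a rough guide to which probe sets were bright or dim.

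Cochlear RNA of female mice aged 10 weeks was hybridised to 10 arrays, each with RNA pooled from 8 mice, and per the labels the membranous labyrinth was dissected out. The 4 groups were 129X1/SvJ control (3 arrays), 129X1/SvJ noise (3 arrays), B6.CAST control (2 arrays) and B6.CAST noise (2 arrays). Noise mice heard an octave band of noise at 10 kHz for 1 h, at a level of 105 dB SPL, and their cochleae were taken 6 h later, while control mice had a sham session in the same chamber. 129X1/SvJ is an inbred strain known for its resistance to noise damage, and B6.CAST is a C57BL/6J strain with a CAST-derived segment around Cdh23. On the third array of each 129X1/SvJ group the labels spell the strain 129XI/SvJ, and both arrays were kept in that strain. Each array averages 8 animals and all cell types of the tissue, so more cells of a type and more RNA per cell cannot be told apart. The study asked how the cochleae of strains of unequal noise susceptibility respond to noise, and the comparisons here are noise against control within each strain, the difference between those effects, and strain against strain in each condition.

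The ligands of this family are made as membrane-bound precursors, which metalloproteases cut to release the soluble growth factor. Hbegf (heparin-binding EGF-like growth factor) and Btc (betacellulin) bind both EGFR and ERBB4, Ereg (epiregulin) does so too, and Areg (amphiregulin) binds EGFR. ERBB3 binds neuregulins, has little kinase activity of its own, and signals as a partner of ERBB2. In the cochlea, neuregulin and ERBB signalling is known for its part in the contact between Schwann cells, supporting cells and spiral ganglion neurons, and Hbegf is known in many tissues as a gene rapidly induced by stress and injury. Hbegf on a cell surface is also the receptor for diphtheria toxin in primates, and its precursor associates with the tetraspanin CD9.

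The tissue label was matched by its markers. Coch and Gjb2, genes of cochlear fibrocytes and supporting cells, had mean signals of 15724 and 15741 over the 10 arrays, the hair cell gene Ocm 2917 and the stria gene Dct 10579. Of the keratinocyte genes, Krt5, Krt14 and Krt15 had mean signals of 14.1, 11 and 3.39, under the detection filter, while Krt10 and Trp63 passed it at 270.3 and 68.4. Signals of neutrophil markers, which bone marrow can bring along, ranged from 2170 to 33527 when 8 genes were summed. The first 129X1/SvJ noise array stood apart: its correlation with the other 9 averaged 0.910, where every other array averaged 0.943 to 0.955. A ratio between the 3′ and 5′ Gapdh control probe set, which rises as RNA is degraded or shortened in labelling, was 29.2 on the second 129X1/SvJ control array and 6.94 on the first B6.CAST noise array, and between 0.790 and 1.40 elsewhere.

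**Figure D1:**
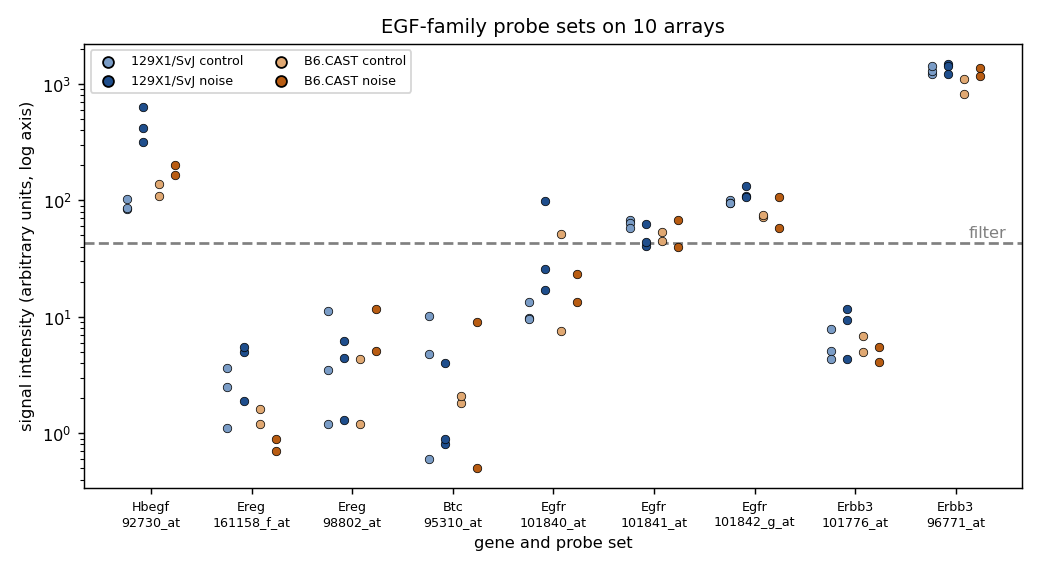
Deposited signal (arbitrary units, log axis) of the 9 EGF-family probe sets, 1 point per array, coloured by group. The dashed line marks the signal of 42.9 at the filter on dim probe sets. Hbegf, 1 probe set of Erbb3 and 2 of Egfr have a mean above it, and the other 5 probe sets have a mean below it.

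Of the member ligands, Hbegf was the one with a mean signal above the filter. The filter left out the 30% of probe sets with the lowest mean and corresponds to a signal of about 42.9. In 129X1/SvJ control mice the Hbegf signal was 103.2, 85 and 86 on the arrays 1, 2 and 3. In 129X1/SvJ noise mice it was 629.9, 414.6 and 317.2. In B6.CAST it was 138.8 and 109.7 on the control arrays and 163.7 and 202.4 on the noise arrays. Every noise array was above every control array of its own strain, and each of the 3 arrays of noise-exposed 129X1/SvJ was above all 7 others. The groups took the order 129X1/SvJ control, B6.CAST control, B6.CAST noise and 129X1/SvJ noise, with means of 91.4 ± 10.2 (SD, n = 3), 124 ± 20.6 (SD, n = 2), 183 ± 27.4 (SD, n = 2) and 454 ± 160 (SD, n = 3). No 2 of these groups overlapped, but none of the 3 steps between neighbours in this order passed the tests below.

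**Figure D2:**
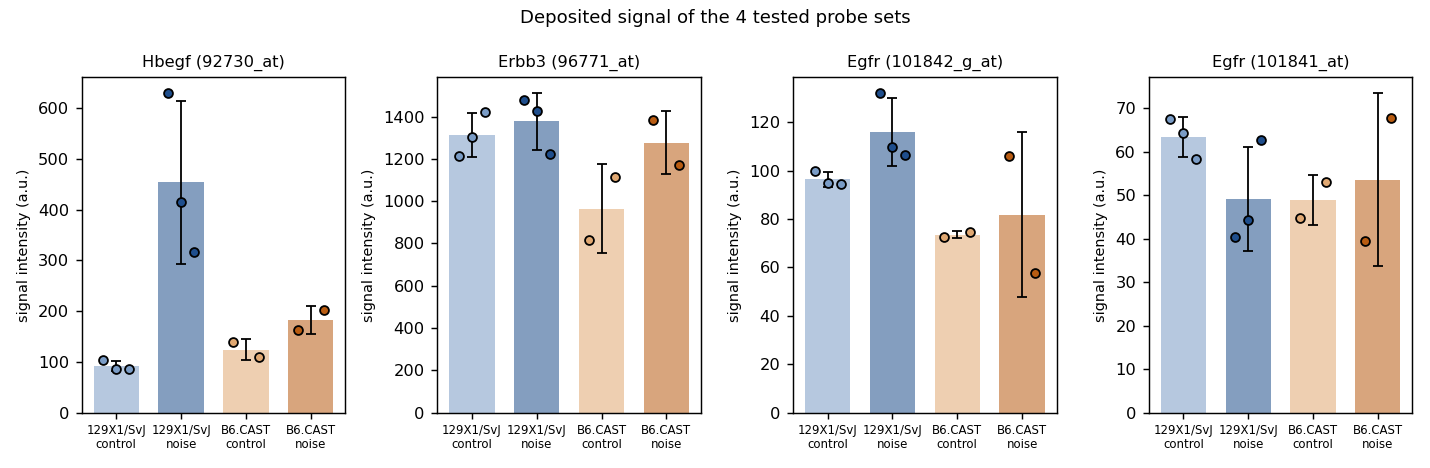
Deposited signal (arbitrary units, axes from 0) of the 4 tested probe sets in the 4 groups. Bars are means, whiskers are 1 SD and points are arrays in order of replicate number. Hbegf reaches 317.2 to 629.9 on the 129X1/SvJ noise arrays and stays at or below 202.4 elsewhere, while Erbb3 and Egfr show no such step.

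In 129X1/SvJ, Hbegf rose with noise by 2.03 ± 0.26 on the log2(signal + 16) scale (SE, n = 3 and 3 arrays; 95% interval 1.46 to 2.60), a 4.08-fold change on that scale (adjusted p = 0.00335 in limma, Benjamini-Hochberg over 8695 tested probe sets). The ratio of the mean deposited signals was 4.97. Among all tested probe sets this was the rise ranked 22 by size and 18 by p-value. Hbegf was the 1 member called of 4 tested probe sets, where 0.506% of all tested probe sets were called in either direction and 0.46% as higher. A lack of overlap by itself is common, since in this comparison 16% of all tested probe sets had groups that did not overlap. The change was 1.78 without the first noise array, the one that stood apart, and passed in each of the 10 fits that left out 1 array (adjusted p from 0.00446 to 0.0238).

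In B6.CAST the change of Hbegf was 0.52 ± 0.32 (SE, n = 2 and 2 arrays; 95% interval -0.18 to 1.22), a ratio of mean signals of 1.47, and it did not pass (adjusted p = 1.00 in limma). Here 0.046% of probe sets were called and 29.6% had groups that did not overlap, so the gap between the Hbegf groups is not particular to it. The mean effect over both strains was 1.27 ± 0.21 (SE, n = 5 and 5 arrays) and passed (adjusted p = 0.0181 in limma, with 0.46% of all probe sets called and 7.63% at an unadjusted p under 0.05). This call was lost in 5 of the 10 fits that left out 1 array: without 129X1/SvJ control 3 and without each of the 4 B6.CAST arrays, with values from 1.23 to 1.30 and adjusted p from 0.054 to 0.107. It was also lost without the pair of arrays of high Gapdh ratio (1.28, adjusted p = 0.243).

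The difference between the noise effects tests directly whether Hbegf responded unequally. It was -1.51 ± 0.41 (B6.CAST minus 129X1/SvJ; 95% interval -2.41 to -0.61) with an unadjusted p of 0.00356, rank 10 of 8695 probe sets by p-value. It did not pass after adjustment in limma (adjusted p = 0.997). No probe set passed in this comparison (0% called), and 258 had an unadjusted p under 0.05. In noise-exposed mice Hbegf was lower in B6.CAST than in 129X1/SvJ by a value of -1.17 ± 0.29 (95% interval -1.81 to -0.53; unadjusted p = 0.0019), which did not pass either (adjusted p = 0.0896 in limma; 1.45% of probe sets were called). It passed with array weights, at -1.04 (adjusted p = 0.0418), and without 129X1/SvJ noise 3, at -1.41 (adjusted p = 0.0386), and not in the other 9 fits that left out 1 array. In control mice the strain difference of Hbegf was 0.34 ± 0.29 (95% interval -0.30 to 0.97; adjusted p = 0.782 in limma, 0.92% of probe sets called). The strains did not overlap for Hbegf in control mice, as for 29.9% of all tested probe sets, or in noise-exposed mice, as for 25.3%. Across the order of group means, the step from 129X1/SvJ control to B6.CAST control, the step from B6.CAST control to B6.CAST noise and the step from B6.CAST noise to 129X1/SvJ noise each missed the threshold.

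**Figure D3:**
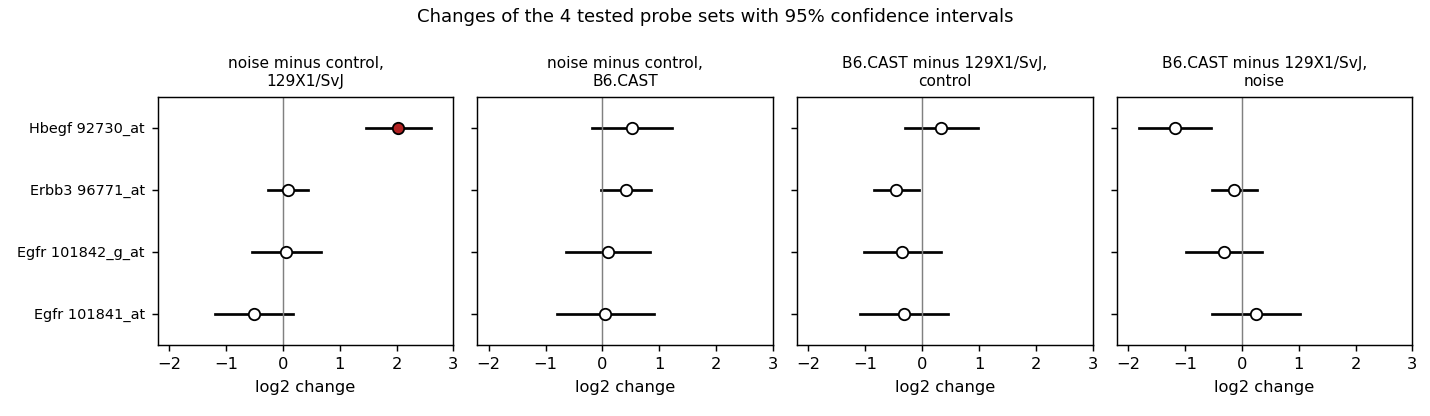
Log2 changes of the 4 tested probe sets (points) with 95% confidence intervals (lines) in 4 comparisons: noise minus control in each strain, and the strain difference (B6.CAST minus 129X1/SvJ) among controls and among noise-exposed mice. A filled red point passed at an adjusted p of 0.05 over all 8695 probe sets, an open point did not. Hbegf in 129X1/SvJ, at 2.03, is the 1 filled point.

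Macrophages are known to express Hbegf, so markers of blood cells are given beside these values. In 129X1/SvJ, all 8 tested macrophage markers and all 8 tested neutrophil markers were higher with noise, with median changes of 0.39 and 0.85 and no call, against a median of -0.04 over all tested probe sets. The summed signal of 9 macrophage genes (Adgre1, a defining marker, was under the filter at a mean of 24.7) was 3036 to 5312 in 129X1/SvJ control, 5141 to 6551 in 129X1/SvJ noise, 6030 to 7740 in B6.CAST control and 6018 to 6923 in B6.CAST noise. On the single arrays of 129X1/SvJ it was 3036, 5091 and 5312 in control and 6551, 5282 and 5141 in noise, so the groups overlapped. The summed signal of the 8 neutrophil genes was 3199, 11423 and 20273 in 129X1/SvJ control and 33527, 11532 and 14173 in 129X1/SvJ noise, groups that also overlapped. The array with the highest Hbegf signal, 129X1/SvJ noise 1, had the highest neutrophil sum of all arrays and the highest macrophage sum of its strain. On 129X1/SvJ control 1 both sums were the lowest of the strain, while its Hbegf signal of 103.2 was the highest of the 129X1/SvJ controls. The Hbegf signal was higher on 129X1/SvJ noise 2 than on noise 3 (414.6 and 317.2). Noise 2 had the lower neutrophil sum and the higher macrophage sum of that pair. In B6.CAST the neutrophil sum was 18316 and 5629 in control and 2170 and 2450 in noise. There, 4 of 8 macrophage markers and 0 of 8 neutrophil markers were higher with noise, with medians of -0.01 and -1.98 and no call. Both medians had the opposite sign from the Hbegf change of 0.52 in B6.CAST. In 129X1/SvJ both medians had the same sign as the Hbegf change of 2.03. Between strains in noise mice, 0 of 8 neutrophil markers were higher in B6.CAST, with a median of -2.80 and no call. This is the same sign as the Hbegf difference of -1.17. The macrophage markers had the opposite sign, with 5 of 8 higher in B6.CAST, a median of 0.11 and no call. Of the erythroid and bone markers, 0 of 2 and 0 of 3 were higher with noise in B6.CAST (medians -0.81 and -0.33). Between strains in noise mice, 0 of 2 and 0 of 3 were higher in B6.CAST (medians -1.55 and -0.56). These are the signs of the neutrophil medians. With noise in 129X1/SvJ, 2 of 2 and 1 of 3 were higher (medians 0.52 and -0.09), and none was called in these comparisons. The part of any of these cells in the Hbegf values was not tested.

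**Figure D4:**
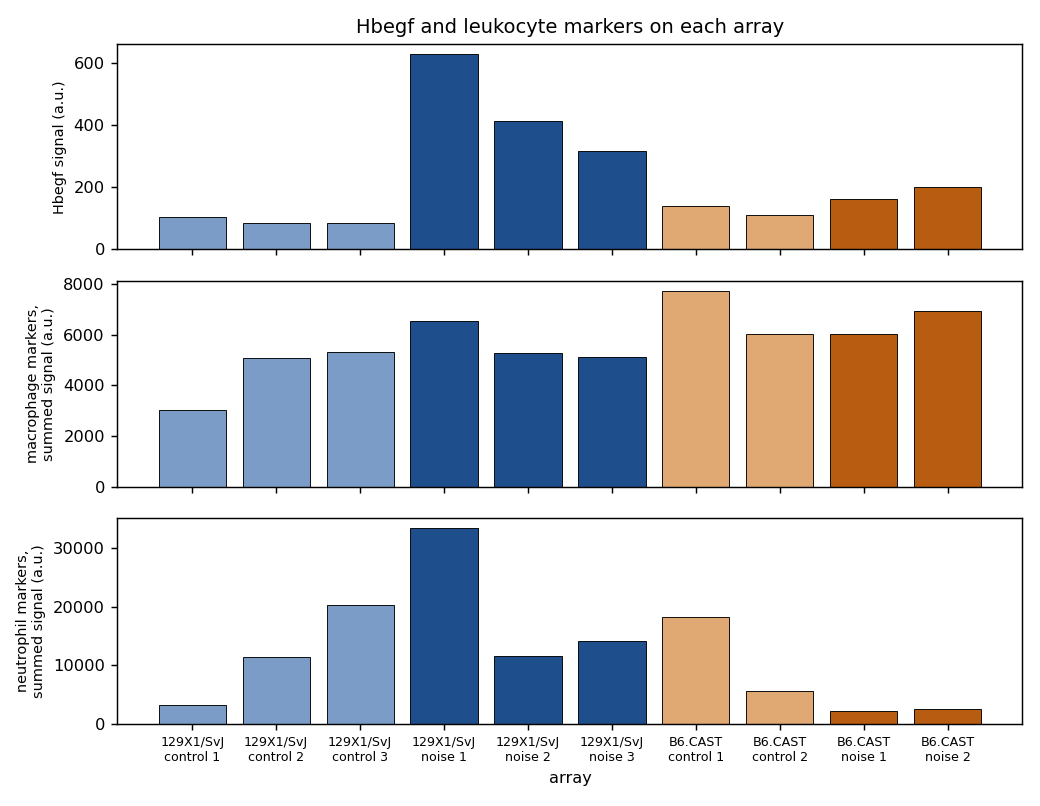
Deposited Hbegf signal (top), summed signal of 9 macrophage markers (middle) and summed signal of 8 neutrophil markers (bottom) on each array, in arbitrary units with axes from 0 and bars coloured by group. The first 129X1/SvJ noise array has the highest Hbegf signal (629.9) and the highest neutrophil sum (33527), and both sums overlap between control and noise in 129X1/SvJ.

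Ereg and Btc, the other member ligands with a probe set, were dim on all arrays. The Ereg probe sets 98802_at and 161158_f_at had mean signals of 5.0 and 2.40, with ranges of 1.20 to 11.6 and 0.70 to 5.50 over the 10 arrays. The suffix _f marks probes that can match other members of a sequence family. Btc had a mean signal of 3.47 and a range of 0.50 to 10.1. For scale, the 15 probe sets for bacterial genes, which a mouse lacks, had mean signals from 2.74 to 26.4, although the labels do not say whether such RNA was added. The mean signals of the 3 probe sets of Ereg and Btc thus lay within or below that range, and no fold change is given for them. For Btc and Ereg 98802_at the lowest and highest arrays were spread over groups. For Btc, 129X1/SvJ control held both 0.60 and 10.1, and B6.CAST noise held both 0.50 and 9.1. For Ereg 161158_f_at the lowest arrays were those of B6.CAST noise (0.70 and 0.90). The highest were 129X1/SvJ noise 1 and 3 (5.0 and 5.50), while noise 2 of that strain was at 1.9. Such signals are too dim to compare between groups, and do not show that the genes were silent. By the RefSeq table of GRCm38.p6, Ereg, Areg and Btc stand side by side on chromosome 5, in the order Epgn, Ereg, Areg, Btc among protein-coding genes. Hbegf is not in that cluster.

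Among receptors, Erbb3 was measured above the filter by 1 of its 2 probe sets. On 96771_at the signal was 1212, 1303 and 1422 in 129X1/SvJ control and 1480, 1426 and 1225 in 129X1/SvJ noise. In B6.CAST it was 815.0 and 1112 in control and 1382 and 1172 in noise. The 129X1/SvJ groups overlapped, while both B6.CAST controls lay below all 8 other arrays. The change with noise was 0.09 ± 0.16 in 129X1/SvJ (95% interval -0.26 to 0.45; adjusted p = 0.843 in limma). In B6.CAST it was 0.41 ± 0.20 (95% interval -0.02 to 0.85; adjusted p = 1.00), and was 0.21 when B6.CAST control 1 was left out. In control mice Erbb3 was lower in B6.CAST by a value of -0.45 ± 0.18 (95% interval -0.85 to -0.05; unadjusted p = 0.0295), which did not pass (adjusted p = 0.375 in limma), and was -0.25 without that same array. In noise mice the strain difference was -0.13 ± 0.18 (adjusted p = 0.879). Of the tested probe sets, 29.9% had control groups of the 2 strains that did not overlap.

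ERBB3 is a receptor of Schwann cells and melanocyte precursors, so Schwann cell markers were read beside it. All 5 tested ones (Mbp, Sox10, Pmp22, Egr2 and Mag) were lower in B6.CAST than in 129X1/SvJ in control and in noise mice, with medians of -0.51 and -0.40, none called, against medians of -0.05 and 0.02 over all tested probe sets. Their summed signal was 12859 to 13924 in 129X1/SvJ control, 12900 to 13305 in 129X1/SvJ noise, 9383 to 10683 in B6.CAST control and 9246 to 12164 in B6.CAST noise. The higher B6.CAST noise value and the higher Erbb3 signal of that group (1382) were on the same array, noise 1, which is also the one with the Gapdh ratio of 6.94. The other groups did not show this match. In B6.CAST control the sum was 10683 and 9383 on arrays 1 and 2, and Erbb3 was 815.0 and 1112. In 129X1/SvJ control, array 1 had the highest sum (13924) and the lowest Erbb3 signal (1212). In 129X1/SvJ noise, array 1 had the lowest sum (12900) and the highest Erbb3 signal (1480). The tested stria markers, among them the melanocyte genes Dct and Tyr, had medians of the opposite sign from Erbb3 between strains. In control mice 4 of 5 were higher in B6.CAST, with a median of 0.61 and none called. In noise mice 3 of 5 were higher, with a median of 0.31 and 1 called, where 1.45% of all tested probe sets were called. The part of Schwann cell or stria content in the Erbb3 values was not tested. The second Erbb3 probe set, 101776_at, had a mean signal of 6.40 and a range of 4.10 to 11.6, below the filter and within that of the bacterial controls, so it neither repeats nor contradicts the first.

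Egfr, the receptor of Hbegf, was measured by 3 probe sets that did not move together. On 101842_g_at the signal was 99.9, 94.7 and 94.4 in 129X1/SvJ control and 132, 110 and 106 in 129X1/SvJ noise. In B6.CAST it was 72.6 and 74.5 in control and 106 and 57.6 in noise. The noise arrays of 129X1/SvJ all lay above its controls in the deposited signal, but the groups overlapped after quantile normalization. The change was 0.06 ± 0.27 (95% interval -0.54 to 0.66; adjusted p = 0.936 in limma) and 0.23 without quantile normalization. On 101841_at, designed on the same sequence record, the signal was 67.6, 64.4 and 58.4 in control and 40.5, 44.3 and 62.7 in noise of 129X1/SvJ, a change of -0.51 ± 0.32 (95% interval -1.20 to 0.19; adjusted p = 0.542). The pair of probe sets thus pointed in opposite directions in 129X1/SvJ, neither passed, and their correlation over the 10 arrays was -0.10.

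In B6.CAST the changes of 101842_g_at and 101841_at with noise were 0.09 ± 0.34 and 0.05 ± 0.39 (adjusted p = 1.00 for each in limma). The signal of 101841_at there was 44.9 and 53.0 in control and 39.5 and 67.7 in noise. The strain differences in control mice were -0.35 ± 0.31 and -0.32 ± 0.35, and neither passed (adjusted p = 0.791 and 0.855). Their 95% intervals ran from -1.02 to 0.33 and from -1.09 to 0.46. The third probe set, 101840_at, was below the filter with a mean signal of 26.9. It was 98.2 on 129X1/SvJ noise 1 and 51.1 on B6.CAST control 1, and between 7.50 and 25.5 on the other 8 arrays. Those 2 arrays also had the highest macrophage sums and the highest neutrophil sums of their strain and condition, and the part of these cells in the signal was not tested.

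Of the 4 tested probe sets, 1 passed for noise in 129X1/SvJ and for the mean noise effect, and 0 passed in the other 4 comparisons in limma. At an unadjusted p under 0.05 there were 0 of the 4 for noise in B6.CAST, 1 for the difference of noise effects (Hbegf), 1 for strain in control mice (Erbb3) and 1 for strain in noise mice (Hbegf). For noise in 129X1/SvJ it was 1 of the 4 (Hbegf), against 11.5% of all tested probe sets. Over all tested probe sets, 2.1%, 2.97%, 11.1% and 10.6% had such a p in these comparisons. Over the 10 arrays the log2 values of Hbegf correlated at 0.42 with Erbb3, at 0.21 with Egfr 101842_g_at and at -0.67 with Egfr 101841_at. These arrays share 4 groups, so the correlations are descriptions.

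The genes whose log2 values followed Hbegf most closely over the 10 arrays, among 6505 other genes, were Oc90 (Pearson r = 0.985), Nfkbia (r = 0.968) and Gadd45b (r = 0.951). Without the first 129X1/SvJ noise array the values were 0.974, 0.958 and 0.928. Oc90, otoconin 90, is a matrix protein of otoconia. Its signal was 87.0, 80.1 and 79.6 in 129X1/SvJ control, 211, 165 and 129 in 129X1/SvJ noise, 110 and 91.6 in B6.CAST control and 99.8 and 118 in B6.CAST noise. Its noise change in 129X1/SvJ of 0.75 ± 0.22 missed the threshold (adjusted p = 0.255 in limma). Nfkbia, the inhibitor of NF-kappaB that NF-kappaB induces, was at 1.05 ± 0.20 and just missed the threshold (adjusted p = 0.0503). Gadd45b, a stress gene, rose by 3.14 ± 0.23 (adjusted p = 0.000174). In B6.CAST these genes were at 0.11, 0.41 and 1.08, none called. For Erbb3 the closest genes were Fzd2 (0.919), Rbms2 (0.904) and Grin2c (0.901). For Egfr 101841_at they were Tdrp (0.936), Capn2 (0.919) and Mapk14 (0.918), and for 101842_g_at Slc25a47 (0.929), Myrf (0.896) and Mettl18 (0.889). The 2 Egfr probe sets thus shared none of their 3 closest genes.

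The rest of the pathway was read from 61 genes in 5 lists, of which 40 had a probe set and 30 a tested one. For noise in 129X1/SvJ, 3 of the 30 passed as higher, 0 as lower, and 16 were higher, with a median change of 0.10. Over all tested probe sets 0.46% passed as higher, 0.506% in either direction, 45% were higher and the median was -0.04. For noise in B6.CAST 0 passed in limma, 3 had an unadjusted p under 0.05, and 21 of 30 were higher, with a median of 0.15. Over all tested probe sets 0.046% passed, 2.1% had such an unadjusted p, 51.2% were higher and the median was 0.01. In the mean of both strains 2 passed as higher (Phlda1 and Ier3), where 0.46% of all probe sets passed in either direction. No pathway gene passed in the difference of noise effects or between strains, where 1, 1 and 3 of the 30 had an unadjusted p under 0.05 in limma for the difference, for control and for noise mice. The shares over all tested probe sets were 2.97%, 11.1% and 10.6%, so these counts are near or below the background.

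The 3 genes that passed were all on the list of genes that growth factor signalling through ERK is known to induce. Several other stimuli induce them too, and Egr1 and Ier3 were known from earlier results of these data. Phlda1 had a signal of 711.6 to 1163 in 129X1/SvJ control and 2623 to 3457 in 129X1/SvJ noise, and rose by 1.82 ± 0.21 (adjusted p = 0.00195 in limma). In B6.CAST it was 751.7 to 795.3 in control and 1470 to 2216 in noise, a change of 1.19 ± 0.25 that did not pass (adjusted p = 0.463). Ier3, an early response gene linked to cell survival, rose by 1.87 ± 0.16 in 129X1/SvJ (adjusted p = 0.000277) and was at 1.21 ± 0.20 in B6.CAST (adjusted p = 0.106). Phlda1 and Ier3 passed in 129X1/SvJ in each of the 10 fits that left out 1 array. Egr1, a zinc finger transcription factor, rose by 2.20 ± 0.41 in 129X1/SvJ (adjusted p = 0.0454) and this call was lost in 6 of those 10 fits: without each of the 3 control arrays of 129X1/SvJ (adjusted p = 0.181, 0.129 and 0.174), both B6.CAST controls and B6.CAST noise 1 (0.0772, 0.0785 and 0.0545). It was also lost under 5 of 10 other alternatives (adjusted p from 0.0661 to 0.151). The Egr1 signal was 237.8 to 278.0 in 129X1/SvJ control and 2692, 805.7 and 854.4 on the 129X1/SvJ noise arrays in order. The highest was thus on the array that stood apart. Over the fits that left out 1 array, the Egr1 change ran from 1.64 to 2.50. The other 4 tested genes of the list (Etv4, Myc, Ccnd1 and Mcl1) had changes from -0.12 to 0.35 in 129X1/SvJ and from 0.02 to 0.72 in B6.CAST, none called.

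**Figure D5:**
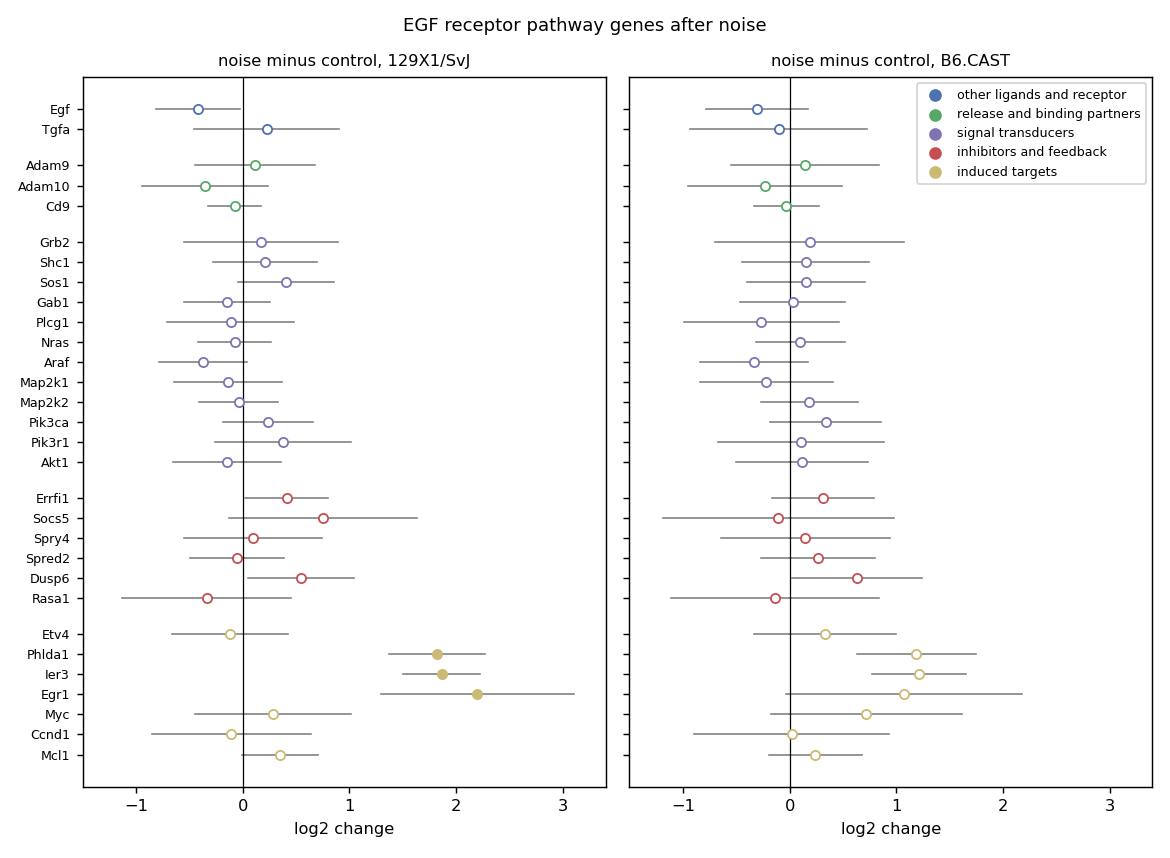
Log2 changes with noise (points) and 95% confidence intervals (lines) of the 30 tested EGF receptor pathway genes in 129X1/SvJ (left) and B6.CAST (right), grouped and coloured by list, with filled points for an adjusted p under 0.05. Filled points are Phlda1 (1.82), Ier3 (1.87) and Egr1 (2.20), all in 129X1/SvJ, and most other intervals span 0.

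Among inhibitors and feedback genes, 0 of 6 tested genes passed in either strain in limma, their medians being 0.25 (129X1/SvJ) and 0.21 (B6.CAST). An unadjusted p under 0.05 was reached by 2 and 1 of the 6, where 11.5% and 2.1% of all tested probe sets reached it. Dusp6, the phosphatase that switches off ERK, was at 0.55 ± 0.23 in 129X1/SvJ (unadjusted p = 0.0336, adjusted p = 0.411) and 0.63 ± 0.28 in B6.CAST (unadjusted p = 0.0444, adjusted p = 1.00). Its signal was 939.6 to 1561 in control and 1495 to 2099 in noise of 129X1/SvJ, with 1 control array above the lowest noise array; after quantile normalization these groups did not overlap. Errfi1, which binds and inhibits the EGF receptor kinase, was at 0.41 ± 0.18 in 129X1/SvJ and 0.31 ± 0.22 in B6.CAST on its brighter probe set (adjusted p = 0.416 and 1.00). Its other probe set gave 1.48 ± 0.53 and -0.70 ± 0.65, so the probe sets disagreed in sign in B6.CAST.

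Of the other ligands and ERBB4, 2 of 8 were tested. Egf had a signal of 555.0 to 791.0 in 129X1/SvJ control, 438.6 to 610.3 in 129X1/SvJ noise, 1130 to 1142 in B6.CAST control and 822.9 to 1025 in B6.CAST noise. All 4 B6.CAST arrays were above all 6 of 129X1/SvJ, and the share of all tested probe sets with such a separation was not computed. The strain difference was 0.74 ± 0.20 in control mice (unadjusted p = 0.00329) and 0.85 ± 0.20 in noise mice (unadjusted p = 0.00124), neither of which passed (adjusted p = 0.160 and 0.0683 in limma). Of all tested probe sets, 29.9% had strain groups that did not overlap in control mice and 25.3% in noise mice. An unadjusted p under 0.05 was reached by 11.1% and 10.6% of all tested probe sets in turn. With noise Egf was at -0.42 ± 0.18 in 129X1/SvJ and -0.31 ± 0.22 in B6.CAST (adjusted p = 0.416 and 1.00), the opposite sign from Hbegf. Tgfa, the ligand TGF-alpha, was at 0.22 ± 0.31 and -0.10 ± 0.38.

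Genes that release or hold the ligands did not pass in any comparison (0 of 3 tested; 0 of 3 with an unadjusted p under 0.05 for noise in either strain in limma). Cd9, the tetraspanin partner of the Hbegf precursor, had a signal of 5034 to 6263 over all 10 arrays and changes of -0.08 ± 0.11 and -0.03 ± 0.14. The metalloprotease gene Adam10 was at -0.35 ± 0.27 and -0.23 ± 0.33, and its other probe set gave 0.95 ± 0.57 and -0.27 ± 0.70. Adam9 was at 0.11 ± 0.26 and 0.15 ± 0.32. Adam17, the main protease for several of these ligands, was under the filter. Among signal transducers 0 of 12 tested genes passed in either strain in limma, and 0 of 12 had an unadjusted p under 0.05 in either. Their medians were -0.06 (129X1/SvJ) and 0.11 (B6.CAST). Those with the smallest p were Sos1, an exchange factor for RAS (0.40 ± 0.21 and 0.16 ± 0.25), the kinase gene Araf (-0.37 ± 0.19 and -0.33 ± 0.23) and the PI3K subunit Pik3ca (0.24 ± 0.19 and 0.34 ± 0.24), given for 129X1/SvJ and B6.CAST in turn. A second Pik3ca probe set had the opposite sign in both strains, at -0.15 ± 0.27 and -0.18 ± 0.33.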

How the data were processed

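The authors deposited 1 linear intensity (signal) for each probe set of one-colour GeneChip arrays, hybridised with biotin-labelled cRNA, per the labels' protocols. From the values, the authors' table is scaled array by array (mean without the lowest and highest 2% of probe sets between 500.27 and 500.30). The software and the build the authors used are not given in the sources read, so no coordinates are printed, and the RefSeq table (GRCm38.p6) served for names and gene neighbours. Gene names came from the platform annotation, updated through RefSeq (10855 of 12488 probe sets had 1 gene, 396 several, 1237 none). Every column of the table belongs to 1 of the 10 samples.

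From these, log2(signal + 16) was computed and quantile normalized. The 66 control probe sets and the dimmest 30% by mean were dropped, leaving 8695. The model in limma 3.58.1 (R 4.3.3) had 1 mean for each of 4 groups over the 10 arrays and moderated variances with a trend. Benjamini-Hochberg adjustment ran over all 8695 at a threshold of 0.05. The spread that p-values measure is that between arrays, which per the labels are biological replicates, and their number limits the precision. The brightest tested probe set stood for each pathway gene. On simulated data with independent probe sets, a log2 change of 2 was recovered for 83 of 100 probe sets for noise in 129X1/SvJ and 73 of 100 in B6.CAST, and a change of 1 for 39 and 28. Among probe sets simulated without a change, 6 were called in 129X1/SvJ and 10 in B6.CAST. In each run 100 probe sets of each size were changed together, while 44 and 4 probe sets were called in the data. Many true changes ease the Benjamini-Hochberg threshold, so these shares can overstate what would be recovered in the data, most of all in B6.CAST.

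Named pathway genes were those past the threshold in any comparison and, in each list and strain, the 2 of smallest p for noise. For likeness, the 3 genes of highest Pearson correlation were taken. The 11 marker lists covered cochlear, hair cell, stria, Schwann cell, macrophage, neutrophil, keratinocyte, endothelium, muscle, bone and erythroid genes. The members and lists were chosen with earlier results of these data known. Same-numbered arrays did not deviate together (2 of 13 pairs correlated over 0.1, range -0.389 to 0.14), so numbers were not used as pairs.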

Additional observations from a re-analysis of the deposited data

How the results depend on the processing

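The rise of Hbegf with noise in 129X1/SvJ passed under each of the 10 alternatives other than leaving out 1 array (1.66 to 2.19), and from 1.78 to 2.26 without 1 array. In at least 1 of the alternatives the rise passed only by a narrow margin. With a replicate block it was 2.03 (adjusted p = 0.0104). The block changed no call of a family probe set, and that of Egr1 was lost with it (2.20, adjusted p = 0.0661), as it was with no filter (0.0893), no variance trend (0.111), only the groups compared (0.0929) and both arrays of high Gapdh ratio left out (0.151). Only 2 of 10 arrays correlated best with an array of their own number. For the mean noise effect, 1 family probe set was called, and 0 without the pair of arrays of high Gapdh ratio (Hbegf 1.28). For the strain difference in noise mice 0 were called, and 1 with array weights (Hbegf -1.04). Without 1 array in turn these counts ran from 0 to 1 each, Hbegf from 1.15 to 1.39 in the mean effect and from -1.41 to -0.91 between strains. Fits without 1 array of B6.CAST leave 1 array in a group, assumed to vary like the others. The cause of these changes was not tested.

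Uncalled values near 0 changed sign. For Egfr 101842_g_at the difference of noise effects was -0.15 without quantile normalization. Without the arrays of high Gapdh ratio it was -0.48, the change in B6.CAST was -0.38 and the mean effect -0.14, and Sos1 in B6.CAST was -0.0015. Without 1 array in turn, Egfr 101842_g_at ran from -0.38 to 0.57 in B6.CAST, -0.16 to 0.32 in the mean effect, -0.45 to 0.51 in the difference and -0.79 to 0.16 between strains in noise mice, and Egfr 101841_at from -0.15 to 0.26 in B6.CAST. Of uncalled pathway genes, Tgfa ran from -0.0074 to 0.56 and Adam9 from -0.13 to 0.39 in 129X1/SvJ. In B6.CAST Tgfa ran from -0.21 to 0.0034, Adam9 from -0.047 to 0.34, Cd9 from -0.14 to 0.074 and Sos1 from -0.0016 to 0.31. Ier3 in B6.CAST passed with array weights (adjusted p = 0.0307). Counts over all probe sets for noise in 129X1/SvJ ran from 22 to 71 over the alternatives against 44, in B6.CAST from 0 to 7 against 4, in the mean effect from 10 to 54 against 40, and between strains from 34 to 151 against 80 in control and from 26 to 192 against 126 in noise mice.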
